A study of Mus musculus with 2 samples.

Results

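Aqp4-positive immature astrocytes were described in 2 single-cell libraries of the newborn mouse forebrain, one from Gmnc-/- animals and one from their wild-type littermates. They were chosen by their own counts of unique molecules (UMIs). Barcodes with 1000 or more UMIs and under 10% mitochondrial UMIs were kept, and a cell was a member when it held 3 or more Slc1a3 UMIs, at least 1 Aqp4 UMI and 0 UMIs of Mki67, Top2a, Eomes, Pdgfra, Foxj1 and Gad2. The rule found 1494 members among 37116 kept cells, 930 of 26178 in the Gmnc-/- library and 564 of 10938 in the wild-type library. Differences in these 8 genes, and differences between members and other cells, follow from the choice and are given as descriptions without a test.

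The Gmnc-/- library held forebrain cells of 4 animals at P0 from 2 litters, and the wild-type library those of 4 littermates, all labelled C57BL/6J. The tissue taken from both hemispheres was the lateral and dorsal cortex with the hippocampus. Animals were pooled by genotype before 1 droplet library with 3-prime chemistry was made of each, so no cell can be traced to its animal and no difference between the genotypes has a replicate check. Which stretch of Gmnc is missing in the mutant, and whether the cells were selected in any way, is not given in the sources used here.

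Astrocytes arise from radial glia at the end of cortical neurogenesis, and at birth many still divide and carry radial glial genes. The glutamate transporter Slc1a3 (GLAST) is already made by radial glia, and maturing astrocytes add further channels and transporters that clear water, potassium and glutamate, among them the water channel Aqp4. They also secrete matrix proteins and factors that act on synapses, such as Sparcl1 (hevin) and the proteoglycan brevican (Bcan), and take up GABA through Slc6a11 (GAT-3). Gmnc encodes a geminin-family protein at the head of the multiciliated cell programme, which makes ependymal cells, and acts with Trp73 in Cajal-Retzius neurons of the cortical hem.

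The libraries differed before any choice of members, with a median of 4927 UMIs and 1.197% mitochondrial UMIs in kept Gmnc-/- cells and 6160 UMIs and 3.065% in kept wild-type cells. The 930 Gmnc-/- members held 6314057 UMIs in all and a median of 6121 per cell, and the 564 wild-type members held 5339999 and a median of 8806. The median mitochondrial share of members was 1.11% in the Gmnc-/- library and 2.34% in the wild-type library. Scrublet called 122 Gmnc-/- members (13.1%) and 27 wild-type members (4.79%) doublets, and these were kept unless stated otherwise. Xist without Y-linked UMIs was found in 440 Gmnc-/- and 428 wild-type members, and Y-linked UMIs without Xist in 261 Gmnc-/- and 94 wild-type members. Of the kept barcodes, 67 sequences occurred in both libraries, and none belonged to a member in both. All intervals given are at 95% and take in the error of counting alone.

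Gmnc itself was at the limit of detection. Members held 5 Gmnc UMIs in the Gmnc-/- library and 1 in the wild-type library, and all kept cells held 125 (0.810 CPM, the count scaled to 1e6 UMIs) in the Gmnc-/- library and 66 (0.776 CPM) in the wild-type library. A 3-prime tag can lie outside the deleted stretch, so these counts do not check the labels. Of the other genes of the multiciliated programme, Mcidas was at 0 UMIs in members of both libraries. The interval of 0 UMIs reached 0.584 CPM in Gmnc-/- members and 0.691 CPM in wild-type members. Trp73 had 2 UMIs in Gmnc-/- members and 4 in wild-type members. The regulatory factor X gene Rfx3, broadly expressed in ciliated cells, stood at 187 CPM in Gmnc-/- members and 166 CPM in wild-type members.

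Members made up a smaller part of the Gmnc-/- library. They were 3.55% of kept cells (interval 3.33 to 3.78) in the Gmnc-/- library and 5.16% (4.75 to 5.59) in the wild-type library, a ratio of 0.689 (0.620 to 0.766). After each cell was thinned to 2000 UMIs, the shares were 2.17% of 22926 Gmnc-/- cells and 3.28% of 9081 wild-type cells, a ratio of 0.662 (0.572 to 0.767). Thinning left out 3252 Gmnc-/- and 1857 wild-type cells with fewer UMIs. The lower share in the Gmnc-/- library therefore stood at both depths, though with 1 library per genotype it cannot be told apart from a difference between dissociations.

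A second denominator asks how many non-cycling astroglial cells carried Aqp4. It takes the 2588 Gmnc-/- and 1194 wild-type cells with 3 or more Slc1a3 UMIs and none of the 6 excluded genes. Members were 35.9% of these (34.1 to 37.8) in the Gmnc-/- library and 47.2% (44.4 to 50.1) in the wild-type library, a ratio of 0.761 (0.684 to 0.846). Thinned, they were 498 of 2488 in the Gmnc-/- library and 298 of 1181 in the wild-type library, a ratio of 0.793 (0.686 to 0.919). Within bands of UMIs per cell the ratio was less clear, with intervals that included 1 in each of the 5 bands. In the band of 4000 to 8000 UMIs, which held the most such Gmnc-/- cells, 37.4% of 1528 Gmnc-/- cells and 44.1% of 435 wild-type cells were members, a ratio of 0.847 (0.718 to 1.002). The band of 8000 to 16000 UMIs held the most wild-type cells. There 51.5% of 408 Gmnc-/- and 54.5% of 578 wild-type cells were members, a ratio of 0.944 (0.789 to 1.13). In the band of 2000 to 4000 UMIs the ratio was above 1, at 1.18 (0.723 to 2.03).

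Cells that met the same rule without any Aqp4 UMI, called Aqp4-negative astroglial cells here, were 6.33% of kept cells in the Gmnc-/- library and 5.76% in the wild-type library. Their ratio was 1.10 (1.003 to 1.21) at full depth and 0.893 (0.824 to 0.967) after thinning, so its direction depended on depth. Cycling astroglial cells, with Mki67 or Top2a, gave a ratio of 1.13 (1.03 to 1.24), and oligodendrocyte precursors, with 2 or more Pdgfra UMIs, a ratio of 1.003 (0.859 to 1.17). The member ratio was below those of these 3 classes at full depth.

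The 6 exclusions weighed differently on the libraries. Before them, 2101 Gmnc-/- cells (8.03%) and 1048 wild-type cells (9.58%) had the required Slc1a3 and Aqp4, a ratio of 0.838 (0.777 to 0.903). The exclusions then removed 55.7% of these cells in the Gmnc-/- library and 46.2% in the wild-type library. Gad2, the GABA-synthesis enzyme of interneurons, was found in 21.3% of them in the Gmnc-/- library and 12.5% in the wild-type library. Eomes, the transcription factor of intermediate progenitors, was found in 8.33% in the Gmnc-/- library and 4.10% in the wild-type library. Foxj1, the ciliogenesis factor of ependymal cells, went the other way, with 127 of the 2101 Gmnc-/- cells and 110 of the 1048 wild-type cells. The exclusions thus took a larger share of the Gmnc-/- cells, and the part of doublets and free RNA in that was not tested.

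**Figure D1:**
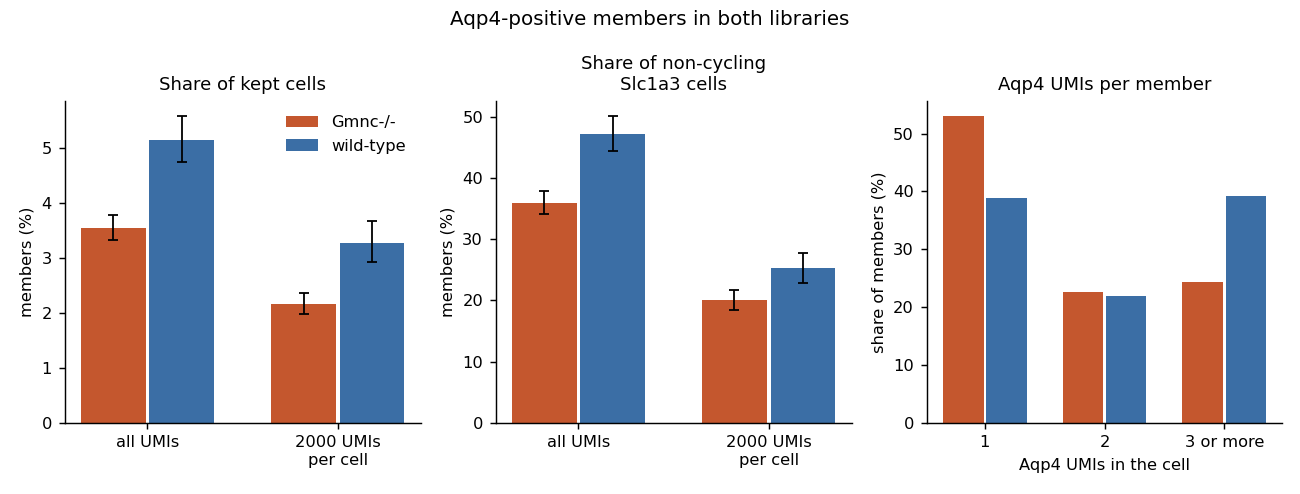
Left and middle: members as a percentage of kept cells and of non-cycling Slc1a3 cells, at all UMIs and at 2000 UMIs per cell, with Gmnc-/- bars left of wild-type bars and exact 95% binomial intervals as error bars. Right: members with 1, 2 and 3 or more Aqp4 UMIs as a percentage of each library's members; 53.0% of Gmnc-/- and 38.8% of wild-type members held a single Aqp4 UMI.

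Most members rested on few Aqp4 molecules. A single Aqp4 UMI was found in 493 Gmnc-/- members (53.0%) and 219 wild-type members (38.8%), and 3 or more in 227 Gmnc-/- (24.4%) and 221 wild-type members (39.2%). The highest count was 34 in a Gmnc-/- cell and 45 in a wild-type cell. The median Slc1a3 count was 15 in Gmnc-/- and 24 in wild-type members. The Gmnc-/- members were also the shallower ones. Relative to all UMIs, Aqp4 stood at 321 CPM in Gmnc-/- members and 313 CPM in wild-type members. After thinning, 47.0% of Gmnc-/- and 46.9% of wild-type members still held an Aqp4 UMI. Because Aqp4 chose the members, these values do not compare Aqp4 between the genotypes. Among all non-cycling Slc1a3 cells, chosen before thinning, 17.6% in the Gmnc-/- and 22.6% in the wild-type library held an Aqp4 UMI after thinning.

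Cells on either side of the Aqp4 threshold were not alike in the other 3 markers. Members with a single Aqp4 UMI had 1033 CPM of Sparcl1 in the Gmnc-/- library and 642.5 CPM in the wild-type library, and Aqp4-negative cells had 632.9 CPM in the Gmnc-/- library and 384.8 CPM in the wild-type library. Bcan stood at 394.5 CPM in Gmnc-/- and 371.8 CPM in wild-type members with a single Aqp4 UMI, and at 237.3 CPM in Gmnc-/- and 217.7 CPM in wild-type Aqp4-negative cells. Slc6a11 differed less, with 182.3 CPM in Gmnc-/- and 178.2 CPM in wild-type members with 1 Aqp4 UMI against 139.5 CPM in Gmnc-/- and 111.2 CPM in wild-type Aqp4-negative cells. Few cells lay at the Slc1a3 threshold: 28 Gmnc-/- and 6 wild-type members held exactly 3 Slc1a3 UMIs, and 15 Gmnc-/- and 4 wild-type cells missed membership with exactly 2.

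The label was checked with markers outside the rule, in cells thinned to 2000 UMIs. Sparcl1 was found in 71.0% of 913 Gmnc-/- members and 66.4% of 559 wild-type members, Bcan in 56.8% of Gmnc-/- and 53.5% of wild-type members, and Slc6a11 in 32.6% of Gmnc-/- and 33.8% of wild-type members. Excitatory neurons, taken for comparison, held Sparcl1 in 10.4% of Gmnc-/- and 5.84% of wild-type cells. They held Bcan in 1.39% of Gmnc-/- and 0.847% of wild-type cells, and Slc6a11 in 3.15% of Gmnc-/- and 3.30% of wild-type cells. Erythroid cells gave Sparcl1 in 35 of 547 Gmnc-/- and 12 of 263 wild-type cells. The median depth before thinning was 6174 UMIs in Gmnc-/- and 8878 in wild-type members, 5424 in Gmnc-/- and 6876 in wild-type neurons, and 5168 in Gmnc-/- and 6586 in wild-type erythroid cells. At full depth the member shares were 82.0% in the Gmnc-/- and 84.4% in the wild-type library for Sparcl1, 81.1% in the Gmnc-/- and 85.5% in the wild-type library for Bcan, and 60.0% in the Gmnc-/- and 68.4% in the wild-type library for Slc6a11. All 3 markers were well above the neuron and erythroid shares in members of both libraries.

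No marker of the 3 was particular to members. After thinning, Aqp4-negative cells held Sparcl1 in 46.6% of Gmnc-/- and 38.8% of wild-type cells, and oligodendrocyte precursors held Bcan in 45.6% of Gmnc-/- and 55.6% of wild-type cells. All 3 markers were found together in 17.9% of Gmnc-/- and 17.2% of wild-type members, and none of them in 14.1% of Gmnc-/- and 14.8% of wild-type members. Aqp4 itself, thinned, was found in 0.284% of Gmnc-/- and 0.254% of wild-type neurons and in 1.10% of Gmnc-/- erythroid cells. In wild-type erythroid cells it was found in 0 of 263, with an interval that reached 1.39% of cells.

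Other genes of astrocyte maturation were measured as well. Gfap, the intermediate filament of mature and reactive astrocytes, stood at 146 CPM in Gmnc-/- and 128 CPM in wild-type members, against 81.9 CPM in Gmnc-/- and 81.2 CPM in wild-type Aqp4-negative cells. S100b, a calcium-binding protein that marks more mature astrocytes, was low at 7.13 CPM in Gmnc-/- and 8.99 CPM in wild-type members, below the 26.2 CPM of Gmnc-/- and 33.1 CPM of wild-type oligodendrocyte precursors. The radial glial transcription factor Pax6 stood at 203 CPM in Gmnc-/- and 206 CPM in wild-type members, close to the 207 CPM of Gmnc-/- and 194 CPM of wild-type Aqp4-negative cells. Among members Pax6 was lower with 2 than with 0 Aqp4 UMIs after thinning. It stood at 232 CPM with 0 and 119 CPM with 2 in Gmnc-/- members, and at 221 CPM with 0 and 131 CPM with 2 in wild-type members. The order over all bins was not steady. With 1 it was 195 CPM in Gmnc-/- and 231 CPM in wild-type members. With 3 or more it was 150 CPM in Gmnc-/- and 71.4 CPM in wild-type members. The bins of 2 held 21 Pax6 UMIs in Gmnc-/- and 11 in wild-type members, and those of 3 or more held 9 and 3. The precursor genes Sox10 and Gpr17 were near 0, with 8 Sox10 UMIs in Gmnc-/- and 3 in wild-type members and 1 Gpr17 UMI in members of each library.

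**Figure D2:**
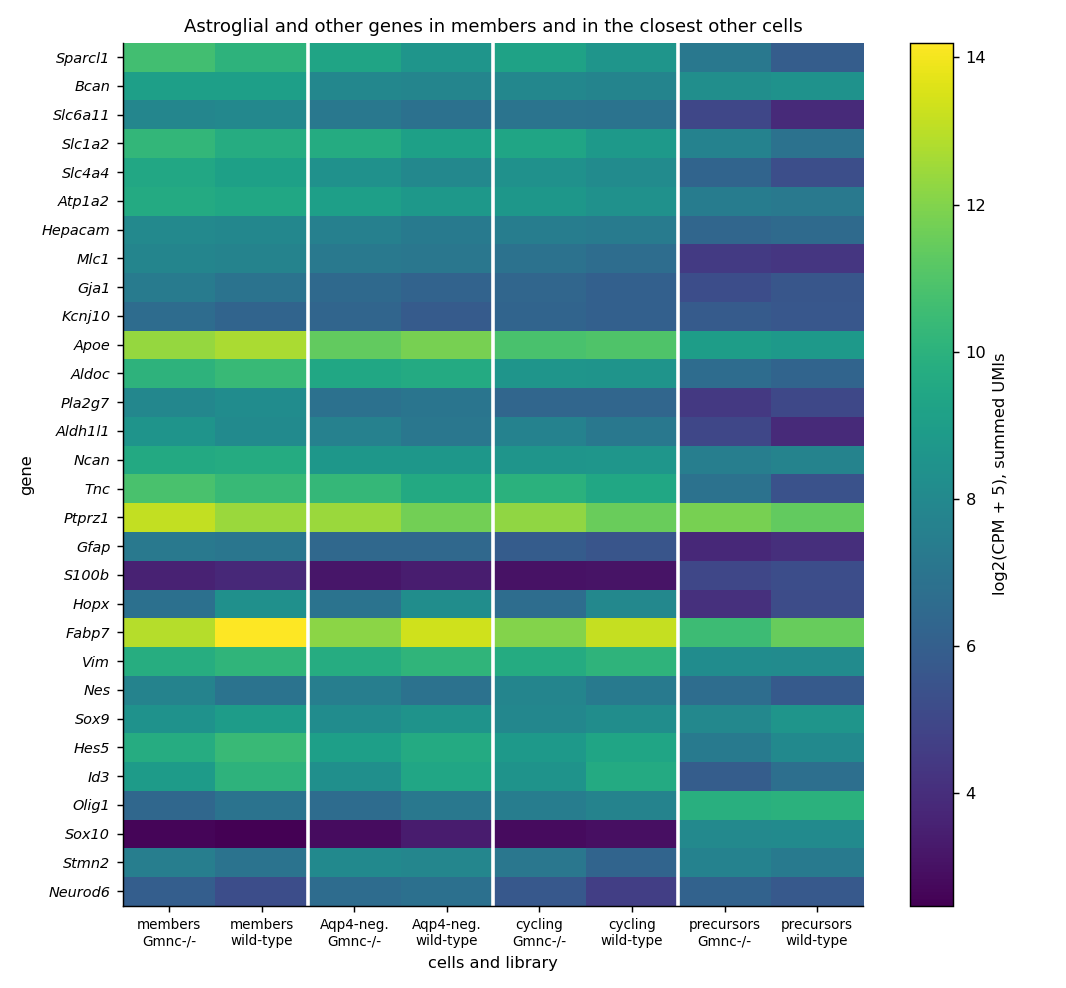
Heat map of log2(CPM + 5) from summed UMIs for 30 genes (rows) in members, Aqp4-negative astroglial cells, cycling astroglial cells and oligodendrocyte precursors (columns), each with the Gmnc-/- library left of the wild-type library. Sparcl1 is brightest in members, at 1607 CPM in Gmnc-/- and 1058 CPM in wild-type members, and Olig1 in precursors.

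Within each library, 101 of 4839 genes (2.09%) stood at least 1.5-fold higher in members than in Aqp4-negative cells in both libraries, and 128 (2.65%) at least 1.5-fold lower in both. Genes at 50 CPM or more in members or Aqp4-negative cells of either library were compared, and folds were taken with 5 CPM added to each level. Because Aqp4 detection split the cells, the names below describe what came with it. Sparcl1 and Bcan were both among the 15 genes that set members apart most in both libraries. Sparcl1 stood at 1607 CPM in Gmnc-/- and 1058 CPM in wild-type members, against 633 CPM in Gmnc-/- and 385 CPM in wild-type Aqp4-negative cells, and Bcan at 544 CPM in Gmnc-/- and 541 CPM in wild-type members, against 237 CPM in Gmnc-/- and 218 CPM in wild-type Aqp4-negative cells.

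Several other genes led this ranking. A2m, a secreted protease inhibitor, came first with 83.6 CPM in Gmnc-/- and 54.1 CPM in wild-type members, against 23.1 CPM in Gmnc-/- and 14.5 CPM in wild-type Aqp4-negative cells. Slc4a4, the sodium bicarbonate cotransporter, stood at 719 CPM in Gmnc-/- and 564 CPM in wild-type members, against 330 CPM in Gmnc-/- and 241 CPM in wild-type Aqp4-negative cells. The carbonic anhydrase Car2 stood at 66.4 CPM in Gmnc-/- and 79.2 CPM in wild-type members, against 25.7 CPM in Gmnc-/- and 26.8 CPM in wild-type Aqp4-negative cells. The potassium channel Kcnj6, the glutamate receptor subunit Grin3a, the G-protein regulator Rgs7, the phospholipases Pla2g3 and Pla2g7, the protease inhibitor Serpine2, the glutathione transferase Gstm1, Phyhipl, Nebl and Car8 completed the 15 leading genes, at log2 ratios of 1.03 to 1.64 in either library.

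By list, 9 of 20 genes of glial metabolism and lipid handling, 6 of 18 of matrix and secreted synapse factors and 4 of 10 of water and ion homeostasis were higher in members than in Aqp4-negative cells past 1.5-fold in both libraries, and none of these 3 lists had a gene lower. Their median log2 ratios in the Gmnc-/- library were 0.57 for metabolism, 0.46 for matrix and 0.50 for water and ion genes, and in the wild-type library 0.63, 0.56 and 0.62. Over all 4839 genes the median was −0.03 in the Gmnc-/- library and −0.05 in the wild-type library. Erythroid and neuronal RNA was lower in members, with 4 of 4 haemoglobin-list genes and 6 of 12 neuronal genes past 1.5-fold in both libraries. The part of these counts in the other differences was not tested.

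Members differed among themselves with the amount of Aqp4. After each member was thinned to 2000 UMIs, 484 Gmnc-/- and 297 wild-type members showed 0 Aqp4 UMIs, and 30 Gmnc-/- and 21 wild-type members showed 3 or more. Sparcl1 stood at 1346 CPM with 0 and 4250 CPM with 3 or more Aqp4 UMIs in Gmnc-/- members, and at 878.8 CPM with 0 and 2500.0 CPM with 3 or more in wild-type members. The proteoglycan neurocan (Ncan) stood at 690.1 CPM with 0 and 1950.0 CPM with 3 or more in Gmnc-/- members, and at 697 CPM with 0 and 1571 CPM with 3 or more in wild-type members. Both genes were highest where Aqp4 was highest in either library, while the counting intervals of Slc6a11 overlapped in the lowest and highest bins. With 2 Aqp4 UMIs Slc6a11 stood at 347 CPM (265 to 445) in Gmnc-/- members, above the 210 CPM (182 to 241) with 0. In wild-type members it was 298 CPM (193 to 439) with 2 and 226 CPM (189 to 267) with 0.

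Id3, an inhibitor of basic helix-loop-helix factors and a target of BMP signalling, showed the same order. It stood at 420 CPM with 0 and 1350.0 CPM with 3 or more Aqp4 UMIs in Gmnc-/- members, and at 973 CPM with 0 and 2524 CPM with 3 or more in wild-type members. The secreted Wnt antagonist Sfrp1 ran the other way, at 542 CPM with 0 and 183 CPM with 3 or more in Gmnc-/- members, and at 254 CPM with 0 and 47.6 CPM with 3 or more in wild-type members. The transcription factor Zbtb20 was also lower with more Aqp4, at 2322 CPM with 0 and 1636 CPM with 2 Aqp4 UMIs in Gmnc-/- members, and at 1699 CPM with 0 and 1071 CPM with 2 in wild-type members. The bins of 3 or more held 11 Sfrp1 UMIs in Gmnc-/- and 2 in wild-type members, so its levels there are imprecise.

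**Figure D3:**
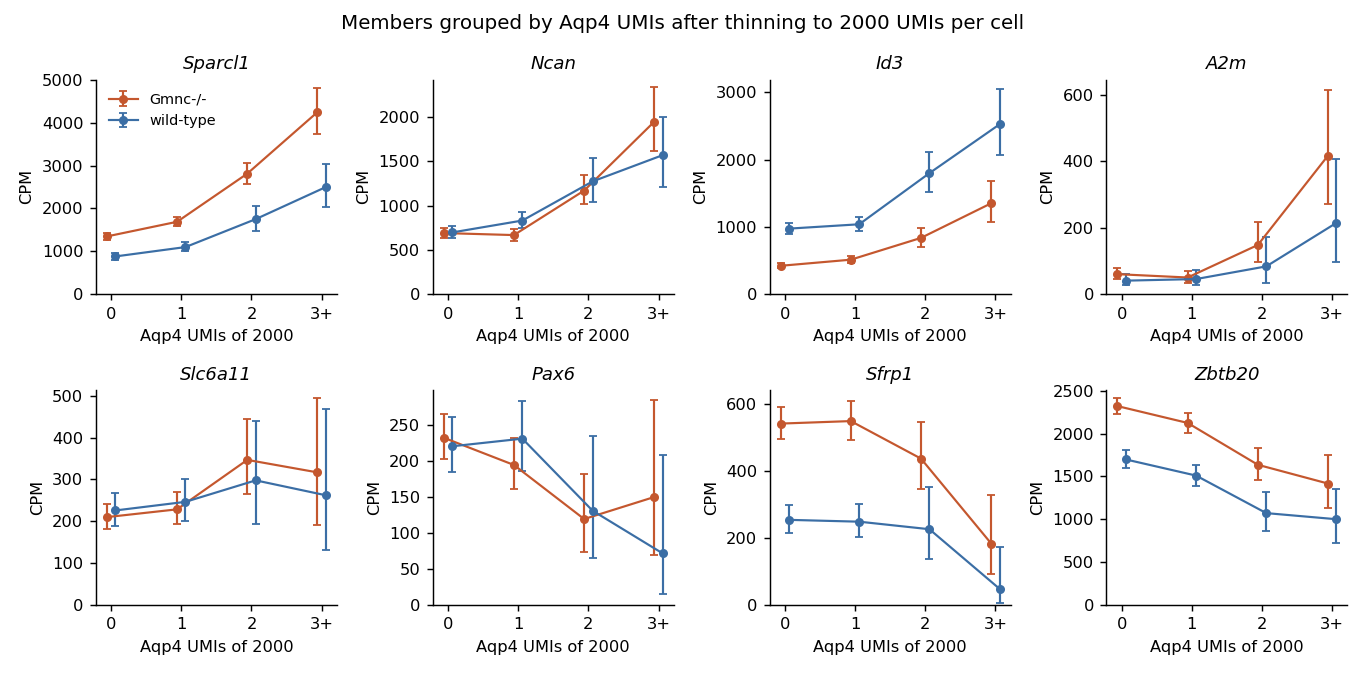
CPM of 8 genes (vertical axes) in members grouped by the number of Aqp4 UMIs left after thinning to 2000 UMIs per cell (horizontal axes), with exact 95% Poisson intervals; Gmnc-/- and wild-type libraries are drawn as separate lines. Sparcl1, Ncan, Id3 and A2m are highest in the bin of 3 or more in both libraries, and Sfrp1 and Zbtb20 are lowest there.

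Between the genotypes, 454 of 4519 genes compared in members (10%) were at least 1.5-fold higher in Gmnc-/- members and 282 (6.24%) at least 1.5-fold lower. The genes compared had 50 CPM or more in members of either library, and the log2 ratio of Gmnc-/- over wild-type was taken with 5 CPM added to each level. The median ratio over all of them was 0.18 on the log2 scale, and the lists below are to be read against it. With median-of-ratios scaling, which moved that median to −0.01, 177 of 4263 genes compared were higher and 540 lower. Of the called genes, 24.7% were then higher in place of 61.7%. The size of the 2 counts therefore rests on the scaling, and no p-value can be given for any gene.

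Nearly all genes called in members went the same way in neighbouring cells, though many of the higher ones by less than 1.5-fold. In Aqp4-negative astroglial cells, 313 of 4612 genes (6.79%) were at least 1.5-fold higher in the Gmnc-/- library and 248 (5.38%) at least 1.5-fold lower, with a median log2 ratio of 0.16. Of the 282 genes lower in Gmnc-/- members, all 282 were also lower in Gmnc-/- Aqp4-negative cells and 201 of them past 1.5-fold. Of the 454 higher in Gmnc-/- members, 441 were also higher there and 197 past 1.5-fold. With the positive median in Aqp4-negative cells, a higher ratio was the more common direction among all genes compared there. The 2 classes come from the same libraries, so this sharing describes the libraries and is not a second measurement of the genotype.

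The difference between the libraries also ran with gene span, the genomic length from start to end of a gene. Over 4515 genes with an annotated span, Spearman's correlation of span with the log2 ratio was 0.583 in members, 0.583 in Aqp4-negative cells, 0.617 in cycling astroglial cells and 0.558 in all kept cells, a description across genes that share 2 libraries. The median log2 ratio in members was −0.26 for the 1505 shortest genes, 0.21 for the 1505 of middle span and 0.35 for the 1505 longest. The shortest held 52 higher and 230 lower genes, and the longest 244 higher and 5 lower. Ribosomal protein genes had a median of −0.25, with 3 of 86 higher and 11 lower. Mitochondrial genes had a median of −1.01, with 9 of 12 lower and none higher. Span, mitochondrial share and genotype moved together here and cannot be told apart with 1 library each.

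**Figure D4:**
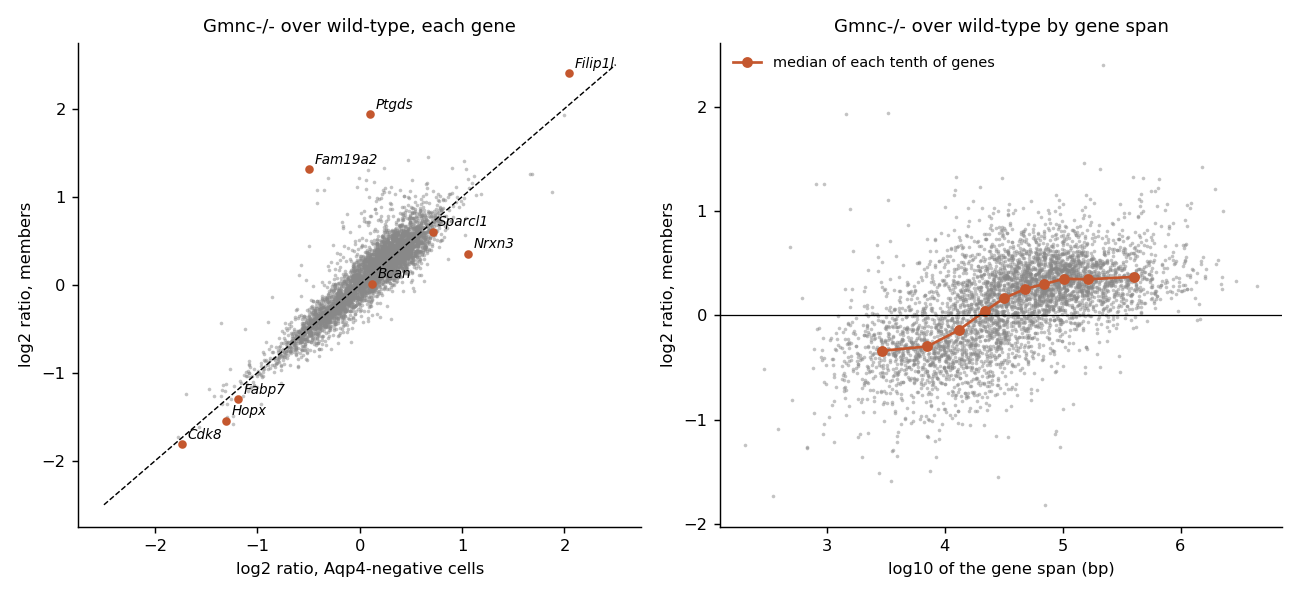
Left: log2 ratio of Gmnc-/- over wild-type of each gene in members (vertical) against the same ratio in Aqp4-negative cells (horizontal), with the line of equal ratios dashed and named genes marked; Ptgds and Fam19a2 lie above the line and Hopx, Fabp7 and Cdk8 near it at the low end. Right: the members' log2 ratio against log10 of gene span, with medians over 10 equal groups of genes ordered by span; the median is below 0 for the shortest genes and above 0 for the longest.

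The genes that handle water and ions were mostly close between the genotypes. None of 10 compared passed 1.5-fold, and their median log2 ratio was 0.26. The gap junction protein Gja1 had 160 CPM in Gmnc-/- and 119 CPM in wild-type members, a log2 ratio of 0.41, and the potassium channel Kcnj10 had 94.4 CPM in Gmnc-/- and 72.5 CPM in wild-type members, a log2 ratio of 0.36. Mlc1 and Hepacam, membrane proteins of astrocyte endfeet, differed by less, at 217 CPM in Gmnc-/- and 207 CPM in wild-type members for Mlc1 and 249 CPM in Gmnc-/- and 237 CPM in wild-type members for Hepacam. Atp1b2, a sodium pump subunit, was lower at 128 CPM in Gmnc-/- and 162 CPM in wild-type members.

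Transporters gave no common direction. None of 6 compared outside the rule passed 1.5-fold, and their median log2 ratio was −0.15. The glutamate transporter Slc1a2 (GLT-1) stood at 1220 CPM in Gmnc-/- and 859 CPM in wild-type members, a log2 ratio of 0.50. Slc6a11 stood at 230 CPM in Gmnc-/- and 242 CPM in wild-type members, a ratio of 0.949 (0.880 to 1.02), and the amino acid transporter Slc38a3 at 51.6 CPM in Gmnc-/- and 68.2 CPM in wild-type members. The interval of Slc6a11 included 1, but its log2 ratio of −0.07 was −0.24 with median-of-ratios scaling, −0.21 in cells with Xist alone and 0.35 in cells with Y-linked UMIs alone.

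Of 20 genes of glial metabolism compared, 4 were at least 1.5-fold lower in Gmnc-/- members and none higher, with a median log2 ratio of −0.29. Fabp7, the brain fatty acid binding protein of radial glia and young astrocytes, stood at 7648 CPM in Gmnc-/- and 18827 CPM in wild-type members, a log2 ratio of −1.30. Phgdh, the first enzyme of serine synthesis, stood at 503 CPM in Gmnc-/- and 857 CPM in wild-type members, a log2 ratio of −0.76. The acyl-CoA binding protein Dbi stood at 5117 CPM in Gmnc-/- and 8372 CPM in wild-type members, and the creatine kinase Ckb at 1637 CPM in Gmnc-/- and 2464 CPM in wild-type members. The lipid carrier Apoe, at 5141 CPM in Gmnc-/- and 6760.3 CPM in wild-type members, had a log2 ratio of −0.39 and did not pass 1.5-fold. The list's genes had a median span of 11422.5 bp, and its median ratio was close to the −0.26 of the 1505 shortest genes.

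Of 18 matrix and synapse genes compared, Sparcl1, Vcan and Ptprz1 were at least 1.5-fold higher in Gmnc-/- members and Cspg5 lower, with a list median of 0.28 and a median span of 68166.5 bp. Sparcl1 had a ratio of 1.52 (1.47 to 1.57). Ptprz1, a receptor phosphatase that binds matrix, stood at 9000 CPM in Gmnc-/- and 5616 CPM in wild-type members, a log2 ratio of 0.68, and the proteoglycan versican (Vcan) at 310 CPM in Gmnc-/- and 201 CPM in wild-type members, a log2 ratio of 0.61. Cspg5, a transmembrane proteoglycan, stood at 656 CPM in Gmnc-/- and 996 CPM in wild-type members, a log2 ratio of −0.60. The list median was above the 0.18 of all genes and the 0.21 of the 1505 genes of middle span, where its median span falls. It was below the 0.35 of the 1505 longest, and was 0.11 with median-of-ratios scaling. With that scaling Sparcl1 was at 0.43 and Ptprz1 at 0.51, short of 1.5-fold. Bcan had a ratio of 1.01 (0.958 to 1.06), and its log2 ratio was 0.0093 by totals and −0.16 with median-of-ratios scaling. The markers of the label thus did not move together between the genotypes.

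Among radial glial genes, 2 of 17 were higher and 2 lower, with a median log2 ratio of −0.02. Hopx, a homeodomain protein of outer radial glia and astrocyte-forming progenitors, stood at 107 CPM in Gmnc-/- and 321 CPM in wild-type members, a ratio of 0.332 (0.303 to 0.363). It was detected, thinned, in 16.8% of Gmnc-/- and 31.5% of wild-type members, and in 0.567% of Gmnc-/- and 1.35% of wild-type neurons. The tetraspanin Cd9 stood at 300 CPM in Gmnc-/- and 680 CPM in wild-type members, a log2 ratio of −1.17. Sfrp1 stood at 470 CPM in Gmnc-/- and 235 CPM in wild-type members, a log2 ratio of 0.98, and the intermediate filament nestin (Nes) at 208 CPM in Gmnc-/- and 118 CPM in wild-type members, a log2 ratio of 0.79. The other filament gene of radial glia, Vim, was lower, at 863 CPM in Gmnc-/- and 1139 CPM in wild-type members.

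These 4 radial glial differences were also seen in Aqp4-negative cells. There Hopx stood at 117 CPM in the Gmnc-/- and 297 CPM in the wild-type library, Cd9 at 257 CPM in the Gmnc-/- and 544 CPM in the wild-type library, Sfrp1 at 428 CPM in the Gmnc-/- and 209 CPM in the wild-type library, and Nes at 175 CPM in the Gmnc-/- and 113 CPM in the wild-type library. Members without called doublets gave Hopx at 116 CPM in the Gmnc-/- and 335 CPM in the wild-type library and Fabp7 at 8414 CPM in the Gmnc-/- and 19461.5 CPM in the wild-type library. The log2 ratio was then −1.49 for Hopx and −1.21 for Fabp7, both somewhat nearer to 0 than with them.

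Of 19 gliogenic transcription factors, 1 was higher and 4 lower, with a median log2 ratio of −0.11. Nfix, a nuclear factor that drives glial differentiation, stood at 644 CPM in Gmnc-/- and 402 CPM in wild-type members, a log2 ratio of 0.68, or 0.51 with median-of-ratios scaling. The inhibitors Id1 and Id3 were lower, Id1 at 246 CPM in Gmnc-/- and 438 CPM in wild-type members and Id3 at 475 CPM in Gmnc-/- and 1043 CPM in wild-type members, a log2 ratio of −1.13 for Id3. Sox9, a determinant of astroglial fate, stood at 351 CPM in Gmnc-/- and 488 CPM in wild-type members, a log2 ratio of −0.47, and Nfia, another nuclear factor, at 1422 CPM in Gmnc-/- and 1410 CPM in wild-type members. The 4 lower factors, Id1, Id3, Hes1 and Hes5, span 1160 to 3413 bp and Nfix 100469 bp.

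In the Notch pathway the target genes Hes1 and Hes5, both among the short genes described above, were lower in Gmnc-/- members. Hes1 had 170 CPM in Gmnc-/- and 287 CPM in wild-type members, a log2 ratio of −0.74, and Hes5 842 CPM in Gmnc-/- and 1381 CPM in wild-type members, a log2 ratio of −0.71. The feedback inhibitor Nrarp was just short of 1.5-fold, at 57.6 CPM in Gmnc-/- and 89.0 CPM in wild-type members. The receptors Notch1, at 225 CPM in Gmnc-/- and 200 CPM in wild-type members, and Notch2, at 212 CPM in Gmnc-/- and 226 CPM in wild-type members, were close. Hes1 and Hes5 were the 2 of 10 Notch genes past 1.5-fold, and the list's median log2 ratio was −0.10.

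In the BMP, FGF and Shh list, 3 of 18 genes were lower and none higher, with a median log2 ratio of 0.19, or 0.03 with median-of-ratios scaling. The 3 were Id1, Id3 and the FGF antagonist Spry2, which stood at 90.0 CPM in Gmnc-/- and 138 CPM in wild-type members. The BMP receptors Bmpr1a, at 376 CPM in Gmnc-/- and 309 CPM in wild-type members, and Bmpr1b, at 255 CPM in Gmnc-/- and 235 CPM in wild-type members, and the hedgehog receptor Ptch1, at 139 CPM in Gmnc-/- and 116 CPM in wild-type members, were not lower.

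Receptors of astrocytes had a median log2 ratio of 0.20, with 1 of 15 past 1.5-fold. That gene, the AMPA receptor subunit Gria2, stood at 446 CPM in Gmnc-/- and 251 CPM in wild-type members, a log2 ratio of 0.82. Its level was higher in Aqp4-negative cells, at 478 CPM in the Gmnc-/- and 330 CPM in the wild-type library. The glutamate receptors Grm3 and Grm5 were nearer to the median of all genes, with log2 ratios of 0.33 and 0.34. Ednrb, the endothelin receptor, was at 401 CPM in Gmnc-/- and 410 CPM in wild-type members.

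Reelin, secreted by Cajal-Retzius neurons, acts through Lrp8 and Vldlr and the adaptor Dab1. Of 10 genes of this pathway compared in members, 3 were at least 1.5-fold higher in the Gmnc-/- library and none lower, with a median log2 ratio of 0.40 and a median span of 97919.5 bp. The receptor Lrp8 stood at 101 CPM in Gmnc-/- and 47.8 CPM in wild-type members, Dab2ip at 86.5 CPM in Gmnc-/- and 44.2 CPM in wild-type members, and the exchange factor Rapgef1 at 81.2 CPM in Gmnc-/- and 43.8 CPM in wild-type members. Without called doublets Lrp8 stood at 78.9 CPM in Gmnc-/- and 42.4 CPM in wild-type members. Dab1, at 504 CPM in Gmnc-/- and 384 CPM in wild-type members, did not pass 1.5-fold. In all kept cells the same 10 genes had a median log2 ratio of 0.30, so the direction was not limited to members.

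Lists of position and stress were also counted. None of 6 dorsal pallium genes passed 1.5-fold, and their median log2 ratio was 0.01, or −0.16 with median-of-ratios scaling, with Lhx2 at 219 CPM in Gmnc-/- and 249 CPM in wild-type members. Of 2 ventral telencephalon genes compared, Olig2 was lower, and of 4 hippocampal and hem genes, Id3. Of the reactive astrocyte list, 3 genes reached the level for comparison and none passed 1.5-fold. Lcn2 and C3, genes of inflammatory astrocytes, were at 0 UMIs in members of both libraries. Of 12 immediate early and dissociation genes, Junb and Btg2 were lower and none was higher, with Junb at 78.9 CPM in Gmnc-/- and 167 CPM in wild-type members and a median of −0.28 for the list. Fos, often induced by dissociation, was at 900 CPM in Gmnc-/- and 940 CPM in wild-type members. Olig2, shared by precursors and some astrocyte progenitors, stood at 40.7 CPM in Gmnc-/- and 76.8 CPM in wild-type members, and was the 1 of 4 oligodendrocyte lineage genes past 1.5-fold.

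**Figure D5:**
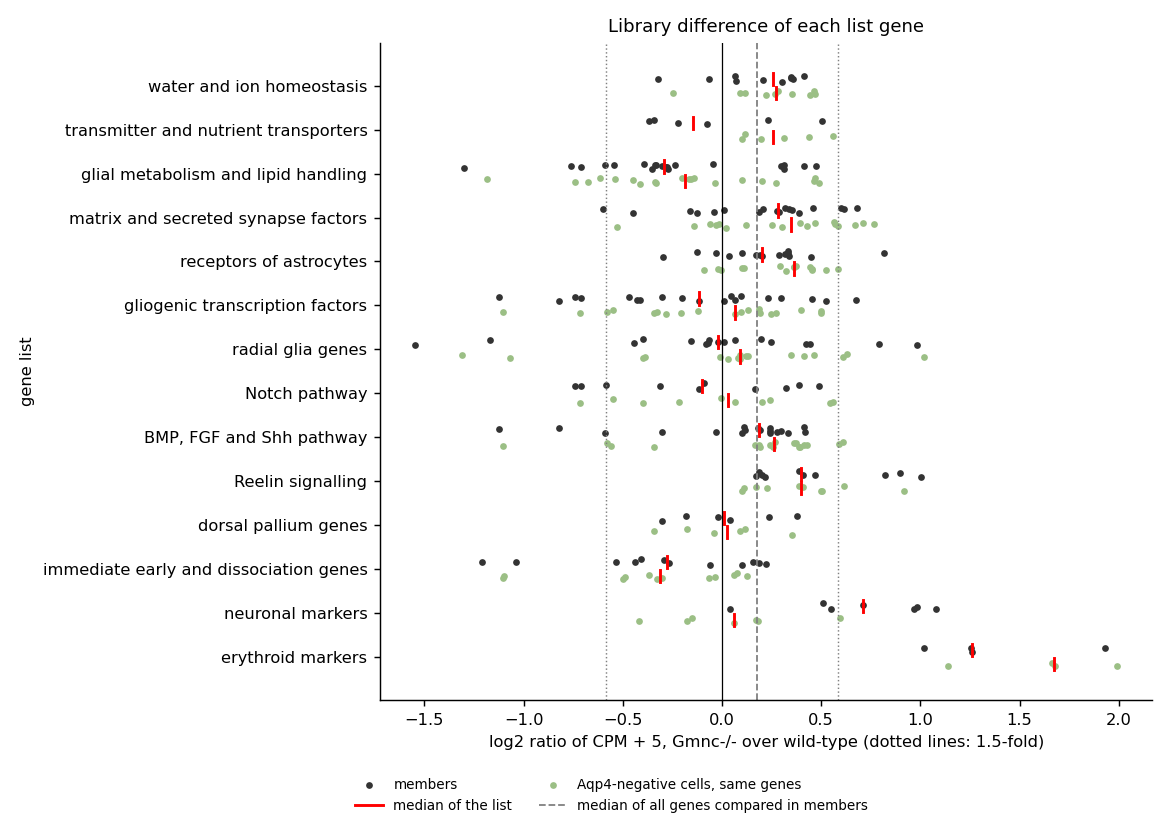
Log2 ratio of CPM + 5, Gmnc-/- over wild-type (horizontal), of each compared gene in 14 gene lists (vertical), in members (dark points, above) and in Aqp4-negative cells (green points, below), with list medians as red marks, the median of all genes in members dashed and 1.5-fold dotted. The metabolism list centres at −0.29 and the matrix list at 0.28 in members, and the members' neuronal and erythroid medians lie furthest to the right.

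The single genes with the most extreme ratios are given here. Besides the genes above, the 10 lowest ratios in Gmnc-/- members included the Mediator kinase Cdk8, at 145 CPM in Gmnc-/- and 523 CPM in wild-type members, the actin binder profilin (Pfn1), at 80.5 CPM in Gmnc-/- and 238 CPM in wild-type members, and Sdhd, Sap18, Hmgn2, Lsm5 and Lars2, at log2 ratios of −1.49 to −1.26. Filip1l was the highest, at 109 CPM in Gmnc-/- and 16.7 CPM in wild-type members, a ratio of 6.57 (5.26 to 8.28). In Aqp4-negative cells Cdk8 stood at 165 CPM in the Gmnc-/- and 561 CPM in the wild-type library, and Filip1l at 118 CPM in the Gmnc-/- and 24.8 CPM in the wild-type library. Atg4a, an autophagy protease, and Paxbp1 were also among the 10 highest in members and stood at log2 ratios of 1.02 and 1.04 in Aqp4-negative cells.

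The remaining 7 of the 10 highest genes were Ptgds, Srrm4, Rbfox1, Cplx2, Myt1l, Fam19a2 and Nkain3, and the summed RNA of some other cell types was also higher in Gmnc-/- members. In Aqp4-negative cells all 7 had lower log2 ratios than in members. These were 0.10 for Ptgds, −0.49 for Fam19a2, 0.08 for Nkain3, 0.24 for Myt1l and 0.47 for Rbfox1. Srrm4 stood at 0.67 there and Cplx2 at 0.90. Summed over 18 neuronal markers, members held 1283 CPM in the Gmnc-/- library and 731 CPM in the wild-type library, and 4 of 7 compared were past 1.5-fold higher, with a median log2 ratio of 0.71. Without called doublets the sum was 810.1 CPM in Gmnc-/- and 552 CPM in wild-type members. Erythroid genes summed to 1805 CPM in Gmnc-/- and 793 CPM in wild-type members, and to 705 CPM in Gmnc-/- and 378 CPM in wild-type members without called doublets, with Hbb-y at 0 in both libraries; the near-identical haemoglobin copies can share reads. Microglial markers summed to 234 CPM in Gmnc-/- and 161 CPM in wild-type members and vascular markers to 147 CPM in Gmnc-/- and 120.0 CPM in wild-type members, while choroid plexus markers summed to 32.5 CPM in Gmnc-/- and 53.7 CPM in wild-type members. Without called doublets the microglial sum was 142 CPM in Gmnc-/- and 131 CPM in wild-type members. The 1 microglial gene compared was lower in Gmnc-/- members, at a log2 ratio of −0.44. The vascular sum without called doublets was 140 CPM in Gmnc-/- and 125 CPM in wild-type members. Neuronal and erythroid sums were thus higher in Gmnc-/- members with and without the called doublets. The median log2 ratio of the 4 erythroid genes, 1.26 in all members, was 2.20 in cells with Y-linked UMIs alone, 0.044 in members with 2 or more Aqp4 UMIs and −0.027 in cells with Xist alone, where its direction turned. The part of this RNA in the other differences was not tested.

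Leaving out the called doublets moved most of these genes. Ptgds, a prostaglandin synthase made by meningeal and oligodendroglial cells, stood at 77.1 CPM in Gmnc-/- and 16.5 CPM in wild-type members, and at 13.6 CPM in Gmnc-/- and 17.4 CPM in wild-type members without them. The neuronal splicing factor Rbfox1 stood at 279 CPM in Gmnc-/- and 101 CPM in wild-type members, and at 52.5 CPM in Gmnc-/- and 30.6 CPM in wild-type members without them. Myt1l, a neuronal transcription factor, stood at 144 CPM in Gmnc-/- and 54.7 CPM in wild-type members, and at 34.7 CPM in Gmnc-/- and 15.2 CPM in wild-type members without them. The direction of Ptgds turned, and Rbfox1 and Myt1l were lower in both libraries without the called doublets but still past 1.5-fold higher in Gmnc-/- members. Nkain3 stood at 36.1 CPM in Gmnc-/- and 24.7 CPM in wild-type members without them, and its log2 ratio of 0.47, against 1.31 with them, no longer passed 1.5-fold. The log2 ratio of Fam19a2 was 0.87 without them, against 1.31 with them.

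Where the genotype ratio in members departed from that in Aqp4-negative cells, few list genes were involved. Of the 4519 genes compared in members, the ratio was at least 1.5-fold further up in members than in Aqp4-negative cells for 60. It was at least 1.5-fold further down for 5. Of these, 45 and 2 departed as far without called doublets. Of the 60, 58 were lower in members than in Aqp4-negative cells of the wild-type library. Fam19a2, a secreted protein of neurons, stood at 65.6 CPM in Gmnc-/- and 23.4 CPM in wild-type members, against 88.2 CPM in Gmnc-/- and 126 CPM in wild-type Aqp4-negative cells. No gene of the water, transporter, metabolism, matrix, transcription factor or radial glia lists was among the 60, while 3 neuronal markers and 1 microglial or macrophage marker were. That microglial or macrophage marker was lower in the Gmnc-/- library in both classes, at log2 ratios of −0.44 in members and −1.36 in Aqp4-negative cells. The 5 further down were Galntl6, Nrxn3, Nxph1, Vamp2 and Ptchd4, with Nrxn3, a synaptic adhesion protein, at 483 CPM in Gmnc-/- and 377 CPM in wild-type members, against 693 CPM in Gmnc-/- and 330 CPM in wild-type Aqp4-negative cells.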

How the data were processed

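Cells were dissociated with a neural tissue kit and loaded on a droplet instrument, per the labels' protocols. The deposited matrices hold counts of unique molecules per feature and barcode, per the file headers. Cell Ranger 7.1.0 and the mm10 build are named in the processing notes of the submitters. Every barcode held 500 or more UMIs. The sources used here state no other filter.

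The member rule, the gene lists and the named-gene rules were chosen with earlier results of these data known. Counts were summed over members per library and divided by the members' total (CPM), with exact Poisson intervals. Ratios of counts have exact conditional intervals and shares have Clopper-Pearson intervals, all at 95%. A gene was compared where members of one library or the other had at least 50 CPM, without the 8 rule genes, and called at 1.5-fold with 5 CPM added. There are no p-values, because each genotype has 1 library and cells are not replicates. The text names genes of the 24 lists, the 10 highest and 10 lowest ratios, and the 15 genes highest in members over Aqp4-negative cells in both libraries. Haemoglobin, mitochondrial, ribosomal, Xist, Y-linked and predicted genes and the rule genes stay out of these rankings. The genes whose ratio differed between members and Aqp4-negative cells were named after their values were seen. Doublets were called per library with Scrublet in scanpy 1.11.5 at an expected rate of 0.8% per 1000 barcodes. That rate was 22.1% in the Gmnc-/- library and 10.4% in the wild-type library. The calls took 19.1% of kept cells in the Gmnc-/- library and 4.21% in the wild-type library. Leaving them out therefore need not clean both libraries alike. The called doublets were removed only in an alternative.

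Comparison cells were defined by UMIs: neurons had 3 or more of Neurod2 and Neurod6 and no Slc1a3, and erythroid cells 20% or more haemoglobin UMIs. Spans were read from GENCODE gene models for mm10. On Poisson counts simulated from the members' pooled means, 67 of 67 genes changed 1.5-fold came out in the right direction. The intervals held the median ratio of the 3930 unchanged genes for 95.4% of them. Such counts hold no variation between cells, animals or libraries, so they check the calculation alone. The alternatives tried were cell filters, doublet removal, thinning, stricter Slc1a3 and Aqp4 minimums, cells of 1 sex pattern, members without neuronal UMIs, scaling, averaging over cells, the added CPM and gene filters.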

Additional observations from a re-analysis of the deposited data

How the results depend on the processing

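With 1 library per genotype, depth limits the single genes and no alternative replaces a second litter pool. The share of called doublets also differs between the libraries. No paired analysis was possible because each genotype has 1 library. The member share of kept cells, Gmnc-/- over wild-type, stayed below 1 under all 9 alternatives run. The ratio was 0.557 with 2000 or more UMIs and under 5% mitochondrial UMIs and 0.529 with 2 or more Aqp4 UMIs. With 2 or more Aqp4 UMIs the ratio of the shares of non-cycling Slc1a3 cells was 0.584. Both Aqp4 ratios were taken at full depth, where members held a median of 6121 UMIs in the Gmnc-/- and 8806 in the wild-type library. At 2000 UMIs per cell, 88 of 2439 Gmnc-/- and 42 of 1157 wild-type non-cycling Slc1a3 cells held 2 Aqp4 UMIs. There, 30 Gmnc-/- and 21 wild-type cells held 3 or more. Genes higher in Gmnc-/- members numbered 685 of 4594 compared after thinning before the rule and 684 of 4585 in male-pattern cells. They numbered 177 of 4263 with median-of-ratios scaling. With the gene filters they were 1098 of 14614 at 10 or more UMIs and 239 of 2306 at 100 CPM or more. Genes lower numbered 540, 469 and 180 under the last 3 of these, of the same numbers compared. Fewer cells after thinning and in male-pattern cells, and more or fewer genes under the 2 gene filters, follow from how those alternatives were made. With median-of-ratios scaling the list medians were 0.087 for water and ion genes, −0.31 for transporters, −0.47 for metabolism, 0.11 for matrix genes, −0.27 for transcription factors and −0.19 for radial glia genes. The transporter median was −0.0075 with 2 or more Aqp4 UMIs, 0.094 in male-pattern cells, 0.038 with 10 or more UMIs per gene and 0.078 at 100 CPM or more. The matrix median was 0.16 after thinning, the transcription factor median 0.0040 with 2 or more Aqp4 UMIs, and the radial glia median 0.10 in members without neuronal UMIs. The erythroid median turned to −0.027 in female-pattern cells, and the Ptgds ratio to −0.27 without called doublets and −1.13 after thinning. Genes higher in members than in Aqp4-negative cells in both libraries numbered 38 after thinning, 61 with 5 or more Slc1a3 UMIs, 186 with 2 or more Aqp4 UMIs and 66 in members without neuronal UMIs. Genes lower numbered 55, 47, 196 and 70 under the same 4 alternatives, which were chosen for this comparison after seeing the data. Apart from the alternatives' own construction, the cause of these shifts was not tested.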

Other observations

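The feature tables list 3 sequences without a mouse gene identifier, named Stop-Ai9, Tomato and LacZ, and the labels name no reporter. Stop-Ai9 was read in members of both libraries, with 1627 UMIs (258 CPM) in Gmnc-/- members and 4275 UMIs (801 CPM) in wild-type members. Its ratio was the second lowest in the ranking, which left out haemoglobin, mitochondrial, ribosomal, Xist, Y-linked and predicted genes and the rule genes. That log2 ratio, −1.62 in all members, was −4.15 in members with Xist and no Y-linked UMIs and −1.02 in members with Y-linked UMIs and no Xist. Tomato had 168 UMIs (26.6 CPM) in Gmnc-/- members and 302 UMIs (56.6 CPM) in wild-type members. LacZ had 0 UMIs in members of both libraries. In erythroid cells Stop-Ai9 stood at 88.1 CPM in the Gmnc-/- and 183 CPM in the wild-type library.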
